A study of Mus musculus with 21 samples.

Results

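The gasdermins are a family of pore-forming proteins, and 8 mouse genes of the family were followed here in RNA from epidermal sheets: Gsdma, Gsdma2, Gsdma3, Gsdmc, Gsdmc2, Gsdmc3, Gsdmc4 and Gsdmd. The 8 genes were taken by symbol from the 49315 gene identifiers of the count tables. The study concerns the transcription factors AP-2 alpha and AP-2 beta, encoded by Tfap2a and Tfap2b, in adult mouse epidermis, and its 21 samples fall into 7 groups of 3. The comparison uses 6-month-old mice: 3 libraries of strain-specific controls labelled wild type, and 3 libraries labelled K14CreTfap2afl/flTfap2bfl/fl, in which Cre under the keratin 14 promoter is meant to delete both genes in basal keratinocytes and their descendants. The remaining libraries with counts are 2 of 3-week-old mice labelled K14CreTfap2bfl/fl. For the other 13 samples the tables list every gene at 0, so these samples were not used, and no 3-week control was analysed here. The labels do not say whether samples of a group came from separate animals, so the p-values measure the spread between these samples, which may be technical.

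A gasdermin protein joins an amino-terminal pore-forming domain to a carboxy-terminal domain that holds it inactive. When a protease cuts the linker, the freed amino-terminal part inserts into the plasma membrane, and the cell can release interleukin 1 family cytokines and die by pyroptosis. Mice carry a cluster of Gsdma genes and a cluster of Gsdmc genes where humans have a single gene of each kind, and the Gsdma genes are known for expression in skin and the upper digestive tract, the Gsdmc genes for expression in intestinal epithelium.

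The 8 libraries held 11318181 to 17746284 assigned counts each. Tfap2a stood at 165, 140.3 and 210.1 CPM (counts scaled to the same total in every library) in the controls and at 229, 213 and 309 CPM under the double knockout label (log2 fold change 0.47 ± 0.19 SE, adjusted p = 0.118 by edgeR). Tfap2b stood at 57.3, 86.6 and 71.0 CPM in controls and at 53.8, 57.2 and 56.9 CPM under the double knockout label (log2 fold change -0.43 ± 0.17 SE, adjusted p = 0.111 by edgeR). Neither targeted gene passed the test, and a whole-gene count cannot show the loss of a few exons, so these counts do not check the labels. Control replicates 1 and 2 also stood apart: 1376 odorant and vomeronasal receptor genes, which epidermis should not express, carried 1.60 and 3.19 counts per exonic kilobase there, against 0.109 to 0.195 in the other 4 libraries of 6-month-old mice. For members with few counts, the counts that this density would give over the gene's exons are stated beside the values as background.

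The genes lie at 3 places in the GRCm38 assembly. The Gsdma cluster is on chromosome 11, with Gsdma3 (ENSMUSG00000064224) at chr11:98626360-98638226, Gsdma2 (ENSMUSG00000017211) at chr11:98646759-98657964 and Gsdma (ENSMUSG00000017204) at chr11:98664351-98677708, all on the plus strand. The Gsdmc cluster is on the minus strand of chromosome 15, with Gsdmc (ENSMUSG00000079025) at chr15:63775968-63808759, Gsdmc2 (ENSMUSG00000056293) at chr15:63824346-63845177, Gsdmc3 (ENSMUSG00000055827) at chr15:63857724-63878558 and Gsdmc4 (ENSMUSG00000055748) at chr15:63891264-63912297. Gsdmd (ENSMUSG00000022575) stands alone on the plus strand at chr15:75862339-75867404. No annotated gene overlaps any of the 8.

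Because near-identical copies can share reads, the first 60 coding bases of the 8 genes are shown. They start at the ATG, come from the annotated coding exon on the gene's own strand, and carry in capitals each base that differs from the same position of Gsdma or Gsdmc.
Gsdma, chr11:98666061-98666120: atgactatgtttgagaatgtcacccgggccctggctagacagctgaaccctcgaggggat
Gsdma2, chr11:98649054-98649113: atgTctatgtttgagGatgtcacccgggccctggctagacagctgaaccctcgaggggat
Gsdma3, chr11:98629352-98629411: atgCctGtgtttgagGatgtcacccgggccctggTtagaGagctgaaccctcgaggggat
Gsdmc, chr15:63804533-63804592: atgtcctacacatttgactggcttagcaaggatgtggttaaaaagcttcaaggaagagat
Gsdmc2, chr15:63835884-63835943: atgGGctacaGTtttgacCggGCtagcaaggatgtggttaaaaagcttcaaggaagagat
Gsdmc3, chr15:63869238-63869297: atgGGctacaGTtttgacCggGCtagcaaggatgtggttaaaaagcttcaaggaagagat
Gsdmc4, chr15:63902871-63902930: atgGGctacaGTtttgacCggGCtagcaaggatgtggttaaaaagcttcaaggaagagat
Gsdmd, chr15:75863409-75863468: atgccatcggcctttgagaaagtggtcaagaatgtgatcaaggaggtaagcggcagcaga

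In this stretch Gsdma2 differs from Gsdma at 2 positions and Gsdma3 at 5. Gsdmc2, Gsdmc3 and Gsdmc4 share 1 sequence that differs from Gsdmc at 7 positions. Identity was taken over the aligned bases of whole coding sequences, with gaps left out. By this measure the Gsdma genes were 88.9 to 90.7% identical to each other. Gsdmc was 86.7% identical to Gsdmc2, 87.0% to Gsdmc3 and 87.5% to Gsdmc4, whereas Gsdmc2 and Gsdmc3 were 97.1% identical. Of all 150-base windows of a transcript, the length of 1 read, 100% were found in no other gene for Gsdma, Gsdma2, Gsdma3 and Gsdmd, 96.9% for Gsdmc, 90.7% for Gsdmc4, 87.7% for Gsdmc2 and 78.1% for Gsdmc3. Counts are thus least certain for Gsdmc2, Gsdmc3 and Gsdmc4, and the paralogs of each cluster were also summed.

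Between libraries labelled double knockout and controls at 6 months, 3 of the 6 gasdermins that could be tested rose, Gsdmc, Gsdmc2 and Gsdma, and 1 fell, Gsdma2. Gsdma2 passed the low-count filter only through the controls, a selection that favours a fall. Gsdma3 and Gsdmd did not pass the test, and Gsdmc3 and Gsdmc4 had too few counts to be tested. Among all 17755 genes tested, 14.9% were called at an adjusted p under 0.05, 6.26% higher and 8.59% lower. The median log2 fold change was 0.10 over the 6 members tested and -0.04 over all genes tested. In 4 of the 6 members tested no library of one group overlapped the other group in CPM (Gsdma, Gsdma2, Gsdmc and Gsdmc2), against 38.7% of all genes tested, 22.5% higher and 16.3% lower. The same held for Gsdmc4, which was not tested.

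**Figure D1:**
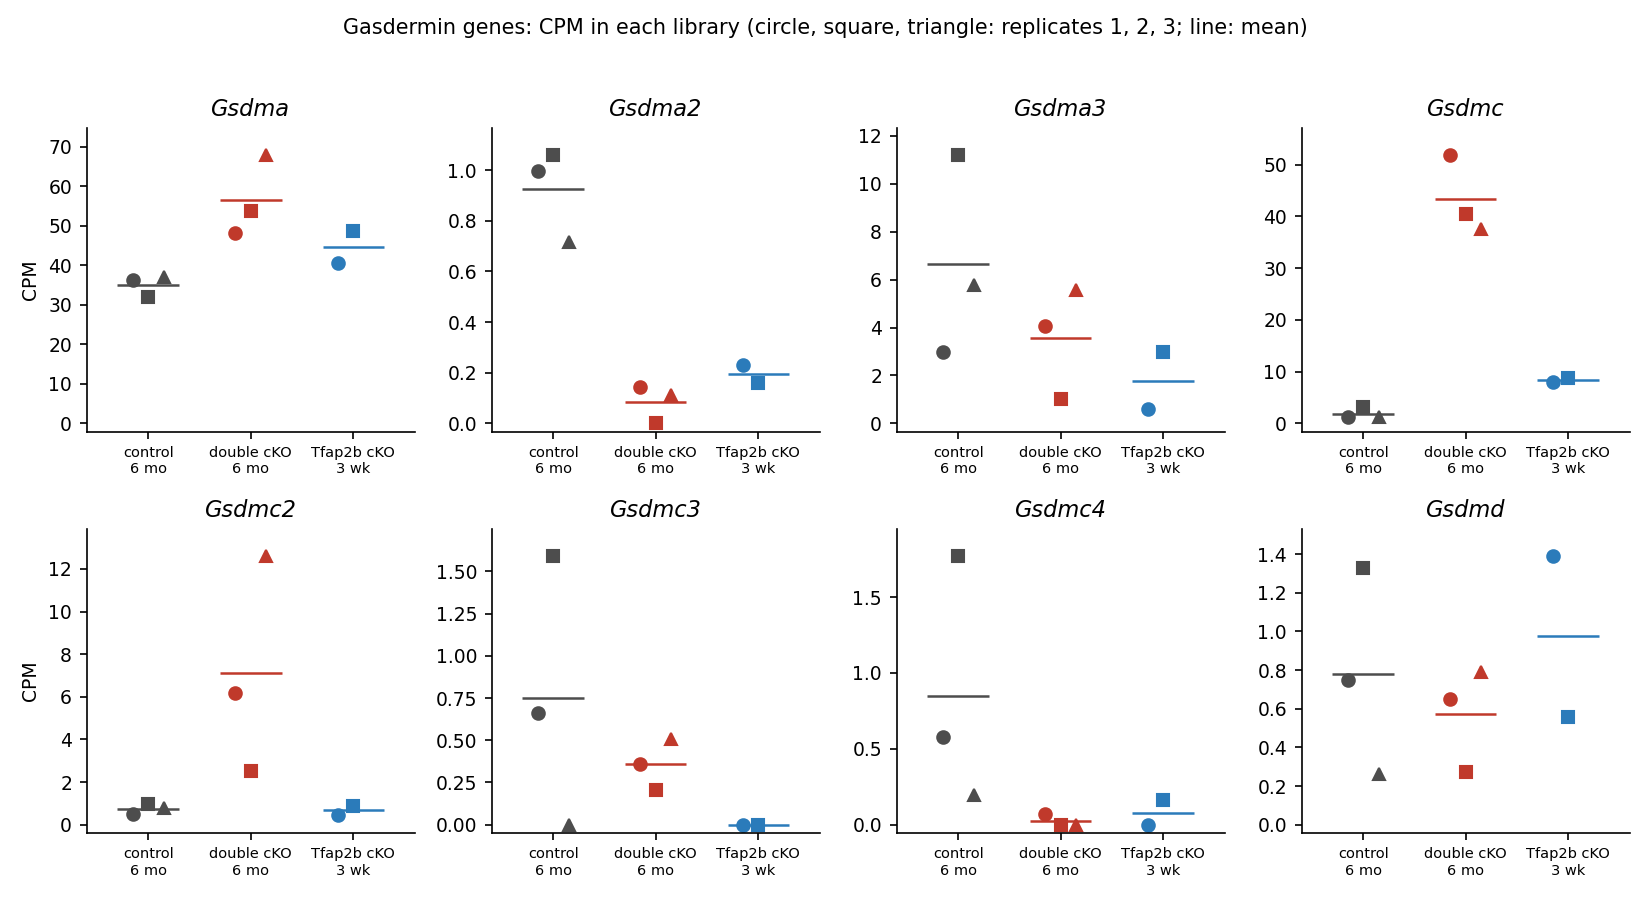
CPM of each gasdermin in each library (linear axes, 1 panel a gene, each with its own scale); symbols mark replicates, lines the mean of a group. Gsdmc stood between 37.6 and 51.9 CPM under the double knockout label and between 1.17 and 3.18 CPM in the controls.

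Gsdmc, whose product caspase-8 can cut, had the largest fitted change of the 6 members tested. It had 16, 36 and 18 counts in the controls, or 1.33, 3.18 and 1.17 CPM, and 717, 593 and 668 counts under the double knockout label, or 51.9, 40.4 and 37.6 CPM. Every library labelled double knockout lay far above every control, and the highest control was replicate 2. The means were 1.89 ± 1.12 CPM (SD, n = 3) and 43.3 ± 7.57 CPM (SD, n = 3), a 20.6-fold difference in the fit (log2 fold change 4.37 ± 0.36 SE, adjusted p = 0.000291 by edgeR). The receptor-gene background over the exons of Gsdmc came to 3.86, 7.66 and 0.364 counts in the 3 controls, below the counts seen in each. The call for Gsdmc held in all 17 alternative analyses, with log2 fold changes from 4.19 to 5.01.

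Gsdmc2, its neighbour in the cluster, had 6, 11 and 12 counts in the controls, or 0.498, 0.972 and 0.781 CPM. Under the double knockout label it had 85, 37 and 223 counts, or 6.16, 2.52 and 12.6 CPM. The receptor-gene background came to 3.71, 7.38 and 0.35 counts in the controls. The groups did not overlap, but the libraries labelled double knockout spread widely, with replicate 3 highest and replicate 2 lowest. The means were 0.75 ± 0.238 and 7.08 ± 5.09 CPM (SD, n = 3 each), and the fitted rise was 7.78-fold (log2 fold change 2.96 ± 0.62 SE, adjusted p = 0.0116 by edgeR). Without replicate 3 of the double knockout label the log2 fold change was 2.27 and the call was lost (edgeR adjusted p = 0.0501). The call was also lost without control replicates 1 and 2 (log2 fold change 2.95, edgeR adjusted p = 0.242) and with limma-voom (2.91, adjusted p = 0.0844), the 3 of 16 alternatives in which it did not hold. With 1 control left, that control is assumed to vary like the other group, and the fold change of Gsdmc2 was almost the same as with all 3.

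Gsdmc3 and Gsdmc4, the remaining genes of the cluster, were counted too rarely to be tested. Gsdmc4 had 7, 20 and 3 counts in controls and 1, 0 and 0 counts under the double knockout label. The groups of Gsdmc4 did not overlap, but its receptor-gene background came to 3.35, 6.65 and 0.316 counts in the controls. The pseudogenes Gsdmcl1 and Gsdmcl2 of the same cluster also exceeded their background in control replicates 1 and 2. The control with the most Gsdmc4 counts is the one with the most receptor-gene counts. Pooled over libraries, the Gsdmc4 rate was 35.8-fold lower under the double knockout label, with an exact 95% interval of 5.95 to 1461 that covers counting error only. Gsdmc3 had 8, 18 and 0 counts in controls and 5, 3 and 9 counts under the double knockout label, with 3.74, 7.42 and 0.352 counts of background in the controls. Its groups overlapped, and its pooled rate ratio of 0.548 had an exact 95% interval of 0.279 to 1.05. Both genes were near the limit of what these libraries can count, since a library with 0 counts allows up to 3. How far the receptor-gene signal of control replicates 1 and 2 enters their values was not tested.

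Summed over the 4 paralogs, the Gsdmc cluster had 3.07, 7.51 and 2.15 CPM in controls and 58.5, 43.2 and 50.7 CPM under the double knockout label. The groups did not overlap. The sum rose with a log2 fold change of 3.48 ± 0.42 SE (adjusted p = 0.00186 by edgeR), and it stayed past the threshold in all 17 alternatives, from 3.24 to 4.43. Counts annotated to the pseudogenes Gsdmcl1, Gsdmcl2 and Gsdmcl-ps did not exceed 2.08 CPM in any of the 8 libraries. Gsdmcl1 had 8, 5 and 0 counts in the controls (background 2.07, 4.1 and 0.195), and Gsdmcl2 had 11, 19 and 0 (background 5.09, 10.1 and 0.48). Neither had a count under the double knockout label. Gsdmcl-ps had 25, 5 and 12 counts in the controls and 3, 2 and 10 under that label.

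Gsdma, the member that the streptococcal protease SpeB can cut in keratinocytes, had the highest mean level per exonic kilobase of the 8 genes in the controls. It stood at 36.3, 31.9 and 36.9 CPM in controls and at 48.2, 53.7 and 67.9 CPM under the double knockout label. The controls lay close together and every library labelled double knockout lay above them, with replicate 3 highest. The means were 35.0 ± 2.74 and 56.6 ± 10.2 CPM (SD, n = 3 each), and the fitted rise was 1.53-fold (log2 fold change 0.62 ± 0.17 SE, adjusted p = 0.0424 by edgeR). This call lay close to the threshold. It was lost in 11 of 17 alternatives, among them the omission of any single library other than control replicate 3, while the log2 fold change stayed between 0.49 and 0.77.

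Gsdma2, known from the stomach, had few counts. It had 12, 12 and 11 counts in controls and 2, 0 and 2 counts under the double knockout label. The groups did not overlap, and control replicate 3, with a receptor-gene background of 0.466 counts over its exons, had about as many Gsdma2 counts as replicates 1 and 2, with backgrounds of 4.95 and 9.82. The pooled rate was 10.4-fold lower (exact 95% interval 3.73 to 40.5, counting error only), and the test called the fall (log2 fold change -2.27 ± 0.96 SE, adjusted p = 0.0393 by edgeR). The prior count of the fit shrinks this log2 fold change, whereas its SE belongs to the unshrunken value. The call was lost in 11 of 14 alternatives, including the omission of any single library other than control replicate 3. Another was the fit without the low-count filter (adjusted p = 0.186 by edgeR). Gsdma2 had passed that filter only through the controls, a selection that favours a fall, so the call is weak support for one. Gsdma2 could not be tested after subtracting the receptor-gene background or with at least 10 counts required in every library. DESeq2 gave it no adjusted p.

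Gsdma3, in which mutations cause hair loss and thickened epidermis in mice, varied widely among replicates. It had 2.99, 11.2 and 5.79 CPM in controls and 4.06, 1.02 and 5.58 CPM under the double knockout label. The groups overlapped, with control replicate 2 highest and replicate 2 of the double knockout label lowest, and the difference did not pass the test (log2 fold change -0.95 ± 0.63 SE, adjusted p = 0.319 by edgeR). The list of hair shaft and inner root sheath genes summed to 34.1 to 50.5 CPM in controls and 22.8 to 38.6 CPM under the double knockout label.

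Summed over the 3 paralogs, the Gsdma cluster stood at 40.3, 44.2 and 43.4 CPM in controls and at 52.4, 54.7 and 73.6 CPM under the double knockout label. The groups did not overlap, yet the sum did not pass the test (log2 fold change 0.42 ± 0.17 SE, adjusted p = 0.12 by edgeR).

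Gsdmd, the executioner cut by the inflammatory caspases, was scarce in every library. It had 9, 15 and 4 counts in controls and 9, 4 and 14 counts under the double knockout label, or 0.26 to 1.33 and 0.273 to 0.789 CPM. Background in the controls came to 2.85, 5.66 and 0.269 counts. The groups overlapped almost fully and the difference was within the spread (log2 fold change -0.41 ± 0.8 SE, adjusted p = 0.704 by edgeR). Its sign turned without control replicate 2 (log2 fold change 0.10), so no direction can be given at this depth.

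**Figure D2:**
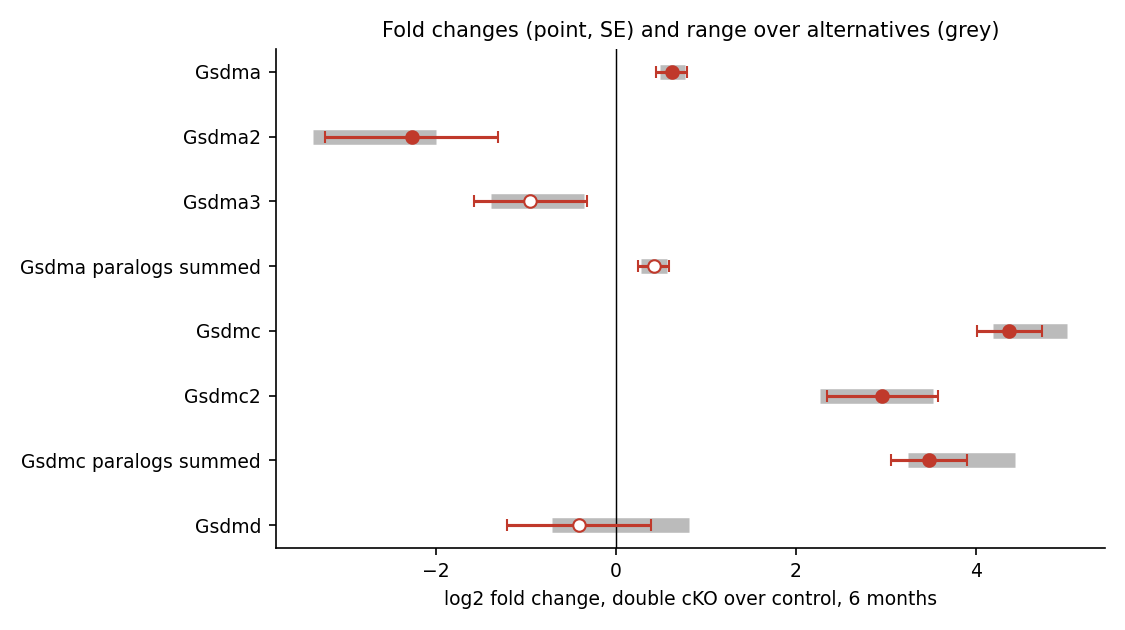
Log2 fold change of each tested gasdermin and of the summed paralogs, libraries labelled double knockout over controls at 6 months; bars are standard errors, filled points passed an adjusted p under 0.05, and grey bands span the alternative analyses. Gsdmc and the summed Gsdmc lie right of 3 throughout, whereas the band of Gsdmd crosses 0.

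Levels can be compared between genes only per length, and as CPM per exonic kilobase the order of the genes was not the same in the 2 groups. In the controls Gsdma came first at 12.9 ± 1.0 and Gsdma3 second at 4.13 ± 2.59 (SD, n = 3 each). Gsdmc followed at 0.787 ± 0.465, then Gsdmd at 0.438 ± 0.3, Gsdmc4 at 0.406 ± 0.392, Gsdmc2 at 0.324 ± 0.103, Gsdmc3 at 0.323 ± 0.343 and Gsdma2 at 0.3 ± 0.0594. From Gsdmc downward each gene lay within the spread of its neighbour. In the libraries labelled double knockout Gsdma, at 20.8 ± 3.74, and Gsdmc, at 18.0 ± 3.15, did not differ beyond their spread. Gsdmc2 at 3.06 ± 2.2 and Gsdma3 at 2.2 ± 1.44 overlapped in the same way. The 4 lowest were Gsdmd at 0.322 ± 0.151, Gsdmc3 at 0.154 ± 0.065, Gsdma2 at 0.0278 ± 0.0247 and Gsdmc4 at 0.0116 ± 0.02. Among 21734 protein-coding genes ordered by mean CPM per kilobase, Gsdma ranked 3187 in the controls and 2023 under the double knockout label, and Gsdmc ranked 11787 and 2357.

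The make-up of the family's transcripts differed in the same libraries. Of all gasdermin CPM per kilobase, the Gsdma cluster held 89.8, 82.5 and 94.2% in the controls and 44.9, 52.8 and 56.6% under the double knockout label. The Gsdmc cluster held 7.72, 14.2 and 4.98% in the controls and 54.3, 46.8 and 42.5% under the double knockout label. All 8 members together came to 44.1, 53.0 and 45.8 CPM in controls and 112, 98.1 and 125 CPM under the double knockout label.

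**Figure D3:**
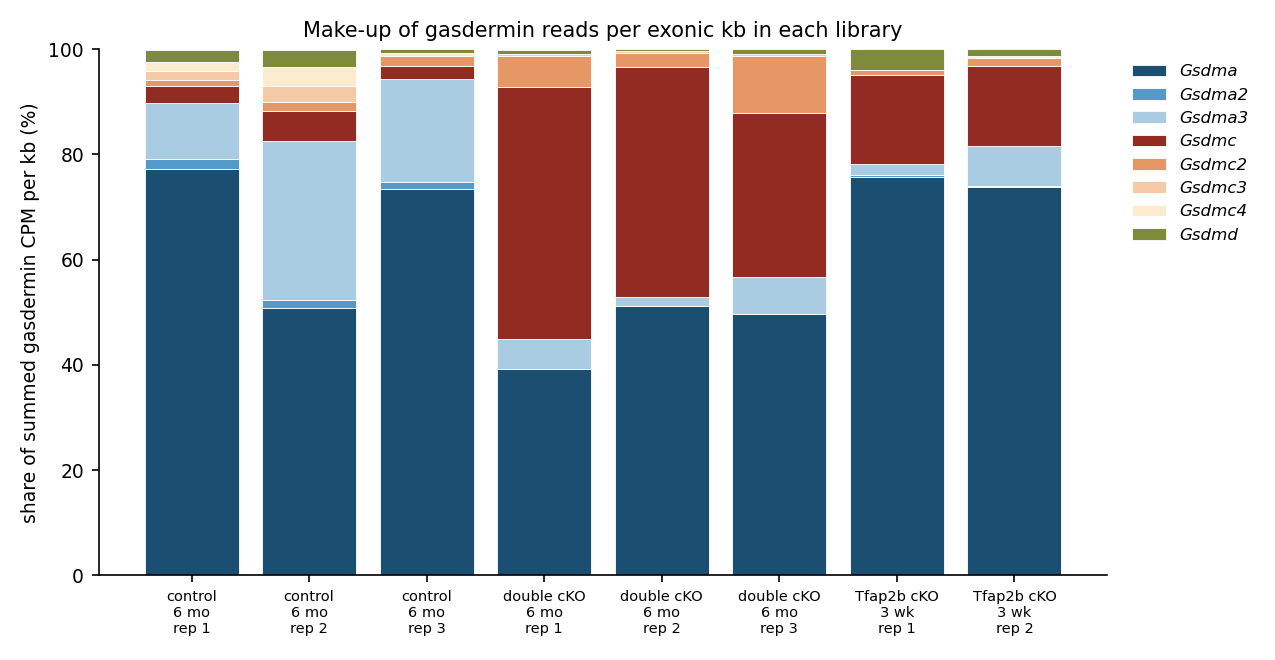
Share of each gasdermin in the summed gasdermin CPM per exonic kilobase, 1 bar a library (percent, each bar summing to 100). The blue Gsdma shades fill 82.5 to 94.2% of the control bars, and the red and orange Gsdmc shades fill 42.5 to 54.3% of the bars labelled double knockout at 6 months.

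A ratio within a library needs no scaling between libraries. The log2 ratio of summed Gsdmc to summed Gsdma counts was -3.69, -2.55 and -4.32 in the controls and 0.16, -0.34 and -0.54 under the double knockout label. The groups did not overlap, and the difference of 3.28 had an exact two-sided permutation p = 0.1, the smallest that 3 against 3 samples can give. The log2 ratio of Gsdmd to summed Gsdma counts was -5.68, -5.01 and -7.21 in the controls and -6.25, -7.48 and -6.49 under the double knockout label (difference -0.77, exact permutation p = 0.4), so those groups overlapped.

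In the 2 libraries of 3-week-old mice labelled K14CreTfap2bfl/fl, Gsdma stood at 40.5 and 48.7 CPM and Gsdmc at 7.94 and 8.87 CPM. Both genes were above every 6-month control there, and Gsdmc was below every 6-month library labelled double knockout. Gsdmc2 stood at 0.463 and 0.879 CPM, within or just below the range of the 6-month controls, and Gsdma3 at 0.617 and 2.96 CPM. Gsdmc3 had no count in either library, Gsdmc4 had 0 and 2 counts, Gsdma2 3 and 2 counts, and Gsdmd 18 and 7 counts. Genotype and age cannot be told apart in these values, and no test was made. Dermal fibroblast markers summed to 2633 CPM in replicate 1 and to 17.5 CPM in replicate 2.

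Of the genes around the 3 loci, the 3 nearest protein-coding genes on each side were read as well. Of these 18 genes 12 were tested, and 3 rose and none fell at an adjusted p under 0.05 in edgeR (7 of the 12 had an unadjusted p under 0.05). Among all 17755 genes tested, 6.26% were called higher and 5690 had an unadjusted p under 0.05. Fam49b, which lies 16800 bases from Gsdmc4 and encodes a regulator of actin dynamics, stood at 28.4, 31.0 and 26.8 CPM in controls and at 80.5, 55.0 and 60.9 CPM under the double knockout label (log2 fold change 1.11 ± 0.18 SE, adjusted p = 0.00499 by edgeR). The next gene on that side, Asap1, a regulator of small GTPases, had a log2 fold change of 0.53 ± 0.14 SE (adjusted p = 0.035 by edgeR). Across the other side of the Gsdmc cluster the nearest protein-coding gene, the growth regulator Myc, lies 1785594 bases away and had a log2 fold change of -0.25 ± 0.31 SE (adjusted p = 0.627 by edgeR). Beside Gsdma, the Mediator subunit gene Med24 had a log2 fold change of 0.53 ± 0.15 SE (adjusted p = 0.0446 by edgeR), while the proteasome subunit gene Psmd3, closer to Gsdma, had 0.32 (SE 0.13, adjusted p = 0.13 by edgeR) and the sphingolipid regulator Ormdl3, on the Gsdma3 side, -0.14 (SE 0.23, adjusted p = 0.697 by edgeR). Of the neighbours of Gsdmd, the nearest on the right, Mroh6, had a log2 fold change of 0.62 ± 0.2 SE (adjusted p = 0.0676 by edgeR). Besides Myc and Ormdl3, Mafa and Fam84b had downward values that did not pass the test. Mafa, left of Gsdmd, had 13, 8 and 13 counts in controls and 0, 3 and 0 under the double knockout label (log2 fold change -2.34 ± 1.15 SE, adjusted p = 0.0515 by edgeR). Fam84b, 2922190 bases from the Gsdmc cluster, had a log2 fold change of -0.70 ± 0.29 SE (adjusted p = 0.126 by edgeR).

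The genes whose pattern was most like that of a gasdermin were sought over the 8 libraries, as the smallest mean absolute difference in log2 CPM centred on each gene's mean, among 12498 genes. For the summed Gsdmc they were Tmigd1 (0.434), the retinol-binding protein gene Rbp2 (0.450) and the threonine dehydrogenase gene Tdh (0.481). Rbp2 stood at 3.40, 5.21 and 4.23 CPM in the controls, at 25.7, 30.8 and 27.6 CPM under the double knockout label and at 6.94 and 8.23 CPM in the 3-week libraries. For the summed Gsdma they were Cyp2s1 (0.107), Gm43761 (0.109) and the glutathione transferase gene Gsto1 (0.112), and for Gsdmd Gm6963 (0.155), Jazf1 (0.201) and Fjx1 (0.209). Gsdmd had 4 to 18 counts a library, so counting error can shape its matches. The measure is a description over libraries that share their groups and depth, and genes that varied little over the libraries were left out.

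Of 48 other genes of the pyroptosis pathway, 34 were tested, of which 4 rose and 2 fell, a share close to the 14.9% of all genes, and their median log2 fold change was -0.15. Among the sensors, 2 of 7 tested fell. Nlrp1b, whose product activates caspase-1, stood at 13.8, 18.4 and 19.6 CPM in controls and at 6.23, 4.7 and 2.14 CPM under the double knockout label (log2 fold change -2.04 ± 0.36 SE, adjusted p = 0.00711 by edgeR). Nlrp10, which is known from epidermis, stood at 189, 105 and 126 CPM in controls and at 48.4, 78.1 and 53.1 CPM under the double knockout label (log2 fold change -1.3 ± 0.26 SE, adjusted p = 0.0129 by edgeR). Both genes had every library labelled double knockout below every control. Dpp9, a protease that restrains Nlrp1b, rose, from 20.0, 20.3 and 29.1 CPM in the controls to 41.2, 40.0 and 38.9 CPM (log2 fold change 0.71 ± 0.18 SE, adjusted p = 0.0314 by edgeR), the single call among 9 tested cell death regulators. The call was lost in 9 of 17 alternatives for Dpp9, in 4 for Nlrp10 and in 1 for Nlrp1b, the omission of control replicates 1 and 2. In those losses the log2 fold change of Nlrp10 lay between -1.3 and -1.12, and that of Nlrp1b was -2.2.

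Of the proteases that cut gasdermins, Casp1, which cuts Gsdmd, rose from 18.6, 13.3 and 18.9 CPM in the controls to 27.2, 25.8 and 35.2 CPM (log2 fold change 0.72 ± 0.21 SE, adjusted p = 0.0483 by edgeR). Casp8, which can cut Gsdmc, rose from 22.1, 20.7 and 26.3 CPM to 54.1, 30.7 and 38.0 CPM (log2 fold change 0.75 ± 0.22 SE, adjusted p = 0.0468 by edgeR). The groups of both caspases did not overlap, and both calls lay near the threshold: that of Casp1 was lost in 11 of 17 alternatives, among them the omission of any single library but control replicate 3, and that of Casp8 in 10 of 17, among them the omission of any single library but control replicate 3 or replicate 2 of the double knockout label. Casp4, the mouse sensor of cytosolic lipopolysaccharide that also cuts Gsdmd, did not pass the test (log2 fold change 0.59 ± 0.26 SE, adjusted p = 0.147 by edgeR), nor did the inflammasome adaptor gene Pycard (-0.13 ± 0.2 SE, adjusted p = 0.677 by edgeR). Casp4 passed it without control replicate 3 (log2 fold change 0.96, adjusted p = 0.0119 by edgeR) and without the low-count filter (0.69, adjusted p = 0.0152 by edgeR). The serine proteases Elane, Ctsg, Gzma and Gzmb had under 1 CPM in every library.

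Of the cytokines that leave cells through gasdermin pores, Il33 rose from 26.2, 27.1 and 44.8 CPM in the controls to 112, 60.3 and 106 CPM (log2 fold change 1.43 ± 0.28 SE, adjusted p = 0.0122 by edgeR), and its groups did not overlap. Its call was lost in 5 of 17 alternatives, among them the omission of control replicate 1, control replicate 2 or replicate 1 of the double knockout label. It was the single call among 7 tested interleukin and receptor genes. Il1b, at most 3.89 CPM in the libraries of 6-month-old mice, did not pass the test (log2 fold change -0.45 ± 0.6 SE, adjusted p = 0.617 by edgeR), nor did Il18 (-0.75 ± 0.34 SE, adjusted p = 0.167 by edgeR), which passed it without the low-count filter (-0.62, adjusted p = 0.03 by edgeR). Ninj1, whose product ruptures the membrane after pore formation, did not pass it either (-0.24 ± 0.37 SE, adjusted p = 0.687 by edgeR). The more distant family member Gsdme, which caspase-3 cuts, had a log2 fold change of 0.35 ± 0.17 SE (adjusted p = 0.187 by edgeR). Pjvk, known from hearing, had 12, 14 and 0 counts in controls and 0, 0 and 3 under the double knockout label and was not tested. Its receptor-gene background came to 2.19, 4.35 and 0.206 counts in the controls, and its counts there fell only in replicates 1 and 2. Without control replicates 1 and 2, none of the 34 pathway genes tested was called by edgeR, and 6 had an unadjusted p under 0.05. In that fit, which has 1 control, 437 of 18848 genes were called and 3646 had an unadjusted p under 0.05.

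**Figure D4:**
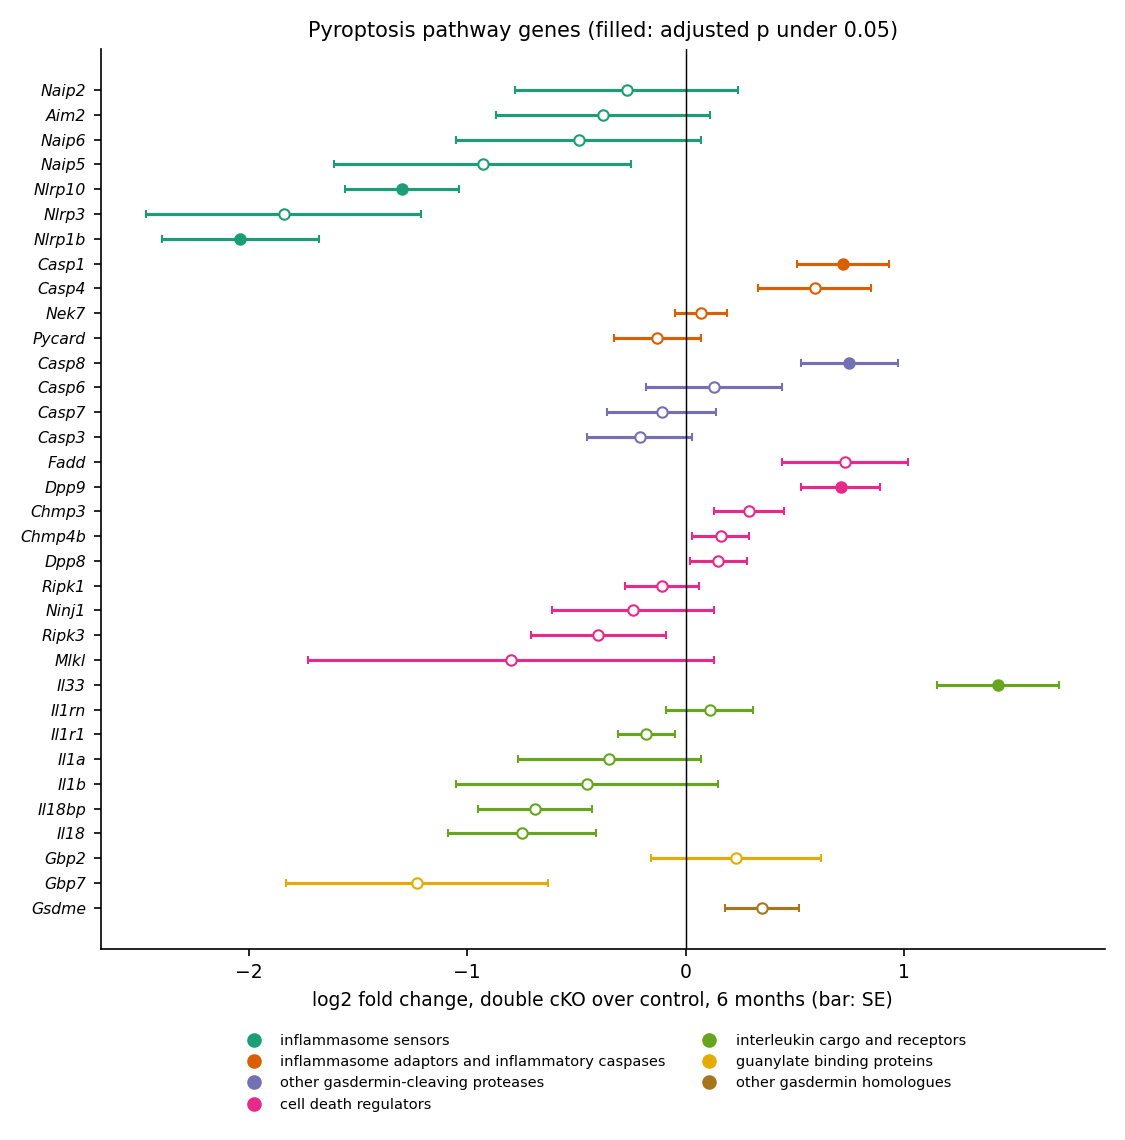
Log2 fold change of the 34 tested pathway genes, libraries labelled double knockout over controls at 6 months, coloured by list; bars are standard errors and filled points passed an adjusted p under 0.05. The filled points are Il33, Casp8, Casp1 and Dpp9 to the right of 0 and Nlrp10 and Nlrp1b to the left.

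Keratinocyte markers differed between the groups in both directions. Among all 17755 genes tested, 6.26% were called higher and 8.59% lower. Of 8 basal keratinocyte markers 6 rose, Krt5 and Krt14 among them, and the list summed to 9383 to 11974 CPM in controls and 17677 to 21052 CPM under the double knockout label. Krt15 of the same list stood lower, at 728, 1164 and 1187 CPM in controls and 234, 673 and 330.3 CPM under that label, and did not pass the test (log2 fold change -1.39 ± 0.39 SE, adjusted p = 0.0513 by edgeR). Of 8 suprabasal keratinocyte markers Krt1 and Lgals7 rose, Dsc1 fell and 5 were not called. The median log2 fold change of the suprabasal list was -0.34. Of 8 wound and stress keratinocyte markers 4 rose, and that list summed to 466 to 730 CPM and 3499.6 to 4680.3 CPM. Of 10 granular and cornified layer markers Flg2, Klk5 and Cdsn fell, with sums over the list of 4469 to 7302 and 2814 to 4221 CPM. Other genes of this list had higher means, such as Casp14 (109 and 207 CPM, groups not overlapping) and Flg (132 and 278 CPM), and did not pass the test. Flg stood at 160.2, 106 and 129 CPM in controls and at 99.6, 149 and 586 CPM under the double knockout label, so replicate 3 carried its higher mean. Lor (log2 fold change -1.27 ± 0.49 SE) and Abca12 (-0.5 ± 0.18 SE) were lower with groups not overlapping, and did not pass the test either. Of 9 neutrophil markers, cells in which Gsdmd is known to act, 3 were tested and Cxcr2 rose, from 0.498, 0.265 and 0.326 CPM to 45.9, 28.4 and 25.4 CPM. The list summed to 0.586 to 12.5 CPM in controls and 27.6 to 49.0 CPM under the double knockout label, nearly all of the latter from Cxcr2. The other 8 neutrophil markers had lower means under that label, none above 0.970 CPM, with Mpo and Elane at 0 counts. The control means of these genes came almost wholly from replicates 1 and 2, the controls with many receptor-gene counts. Control replicate 3 had 2 counts each of Mpo and Ltf and 0 of the others, so no direction can be given for them. Dermal fibroblast markers summed to 58.4 to 168 CPM in controls and 13.3 to 24.9 CPM under the double knockout label, with 4 of 7 lower. In bulk RNA, fewer cells of a type and less RNA per cell cannot be told apart, and the part of these shifts in the gasdermin values was not tested.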

How the data were processed

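RNA from epidermal sheets was depleted of ribosomal RNA and sequenced as 150-base read pairs, per the labels' protocols. The submitters' processing notes name Trimmomatic 0.36, STAR 2.5.2b and featureCounts of Subread 1.5.2, and the builds GRCm38 and GRCh38; strand and multi-mapping settings are not given in the sources used here. The deposited values are raw counts per gene, made by the authors. Identifiers were matched to GENCODE M21 (GRCm38), and 48970 of 49315 had a symbol. CPM are counts scaled to the same assigned total. The main test was edgeR 4.0.16 (filterByExpr, TMM, robust quasi-likelihood, prior count 2) on the 6 libraries of 6-month-old mice, p-values adjusted (Benjamini-Hochberg) across every tested gene, called under 0.05; summed paralogs replaced their members in the table. The biological coefficient of variation was 0.311. The script was tested on simulated counts. Alternatives used DESeq2 1.42.0 and limma 3.58.1, other scalings and filters, and fewer or more libraries; 1, without control replicates 1 and 2, was chosen after seeing the data. Named genes are the 8 members, their neighbours, the most similar genes, and pathway genes called with groups not overlapping, plus 9 pathway genes whatever their result; Elane, Ctsg, Gzma, Gzmb and the named marker genes were chosen after their values were seen. Members, lists and rules were chosen with earlier results of these data known. Intervals cover counting error only.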

Additional observations from a re-analysis of the deposited data

Results flagged for a closer look

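The 2 libraries of 3-week-old mice labelled K14CreTfap2bfl/fl enter no comparison, and some gasdermins lay above all 3 of the 6-month controls there. Gsdma stood at 40.5 and 48.7 CPM, against at most 36.9 CPM in a control. Gsdmc stood at 7.94 and 8.87 CPM, against at most 3.18 CPM, and the summed Gsdmc paralogs at 8.4 and 9.91 CPM, against at most 7.51 CPM. Age and genotype both differ from those controls, and the differences were not tested.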

How the results depend on the processing

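The number of members called, 4 in the main analysis, was 2 with a filter of at least 10 counts in every library, 1 with limma-voom, 2 with all 8 libraries in one fit, 2 against a fold change of 1.5, 2 after subtracting the receptor-gene background and 1 without control replicates 1 and 2; leaving out 1 library at a time gave 1 to 4. Gsdmc was among the genes called in every case. The number of pathway genes called, 6, was 10 without a filter, 2 with all 8 libraries, 1 against a fold change of 1.5 and 0 in edgeR without control replicates 1 and 2; leaving out 1 library gave 1 (without replicate 1 of the double knockout label) to 15 of 42 tested (without control replicate 3). Calls over all genes moved alike, from 668 of 21237 to 7544 of 21030 in those 2 fits. No sign of pairing by replicate number was seen, as deviations of same-numbered libraries correlated at 0.027, -0.161 and -0.0588. Those of differently numbered libraries correlated between -0.109 and 0.169. With deviations taken from means of 3 libraries, such values cannot exclude pairing. With the replicate number as a block, 2 members and 3 pathway genes were called. Signs turned for genes that were not called: leaving out 1 library moved the log2 fold change of Gsdmd from -0.71 to 0.1, of Pycard from -0.24 to 0.08, of Il1b from -0.84 to 0.15 and of Ninj1 from -0.52 to 0.03, and without control replicates 1 and 2 Gsdmd stood at 0.81 and Pycard at 0.13. The cause was not tested. Over all genes, scaling by total counts gave 1376 higher and 1327 lower calls, against 1111 and 1526 with TMM, and the calls of the 4 members held under it.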
